A study of Ramazzottius varieornatus with 27 samples.

Results

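The genes described here are those of the tardigrade *Ramazzottius varieornatus* whose mRNA level was close to that of the controls at 4 h after 500 Gy of 60Co gamma ray and clearly lower from 12 h to 24 h. There were 178 such genes among the 13920 genes of the deposited table. Total RNA came from about 30 whole animals per sample. The 9 groups were non-irradiated controls and irradiated animals collected at 4, 6, 9, 12, 15, 18, 21 and 24 h, with 3 samples each and 27 libraries in all. The methods call the 3 samples of a group technical replicates, so a p-value measures only the spread between these samples. No sampling time is given for the controls, so time after irradiation and time since handling cannot be told apart.

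*R. varieornatus* is a small aquatic animal known for surviving drying and doses of ionizing radiation that kill most animals. Ionizing radiation breaks DNA and oxidizes other molecules, and cells commonly answer with changes in transcription over the following hours. An mRNA level is the balance of synthesis and decay, so an existing mRNA can stay near its starting level for some time after its synthesis slows. In a whole-animal sample a lower value can mean fewer cells of a type or less mRNA per cell, and these cannot be told apart here. Values are TPM, read numbers corrected for transcript length and scaled to a fixed total, multiplied by a TMM factor for each library, so each is a level relative to the rest of the mRNA in that library. The transcript IDs matched no gene name in the sources used here. The roles of the genes, and whether markers of a tissue lie among them, are therefore not given, and members are described by their levels, lengths and times.

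Members were chosen by their values in the controls and at 4, 12, 15, 18, 21 and 24 h, among the 13369 genes with a single transcript model. With x as log2(group mean + 1), a member needed a control mean of at least 5 and a difference from the control between -0.5 and 0.5 at 4 h. The average difference over 12 to 21 h had to be -1.2 or lower and that at 24 h -0.7 or lower. All 12 libraries of 12 to 21 h had to lie below the lowest control library. The control mean was at least 5 for 8838 single-model genes, of which the members are 2.01%. Differences from the control at these times follow from the choice and are given as a description with no test. The libraries of 6 h and 9 h had no part in the choice.

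The edges of the set were not gaps in the data. A further 359 genes met every criterion but the late one, and the nearest values on either side of it rounded to the same number, -1.2. A further 269 genes missed only the 4 h criterion, 249 of them on the lower side. The 4 h differences nearest to the lower edge were -0.495 inside and -0.50 outside, and those nearest to the upper edge 0.461 and 0.503. The 24 h criterion alone removed 27 genes, with nearest values of -0.70 inside and -0.69 outside. The criterion of no overlap with the controls alone removed 50, and the control level alone removed 8, with nearest means of 5.78 inside and 4.99 outside. When each library was rescaled to the same sum, which takes out the TMM factor, 93 genes met the rule and 85 of them were among the 178. Sums were 1068722 to 1140371 in the control libraries and 891312 to 1014834 in those of 12 to 21 h.

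The libraries differed in depth and in amplification. The deposited values step in units of 1 read, and by these steps depth ran from 6.75% of that of 6 h replicate 1 (24 h replicate 3) to 103.9% (4 h replicate 2). The methods give 15 cycles of PCR for the libraries of 4 h and for 6 h replicates 1 and 2, 21 cycles from 6 h replicate 3 to 21 h replicate 3, and 23 cycles for 24 h. For libraries named as controls the methods state no number of their own beyond a general minimum of 15. They also report signs of adapter dimers in 9 h replicate 1. The cycle number rose over the same times as the levels of the members went down. All 4 h libraries had 15 cycles and all from 9 h to 21 h had 21. Cycles and time therefore change together between 4 h and 9 h, and between 4 h and the late times of the rule. They also change together from 21 h to 24 h, and in each case they cannot be told apart. Only 6 h holds both numbers, with replicate 3 alone at 21 cycles. At equal cycles 4 h can be compared with 6 h replicates 1 and 2, and the times from 9 h to 21 h with each other. A comparison of 6 h with 9 h at 21 cycles rests on that single 6 h library. At 15 cycles the median difference of the members from the 4 h mean was -0.14 in 6 h replicate 1 and -0.32 in replicate 2, against 0.04 and 0.06 over genes with a control mean of at least 5. At 21 cycles the 12 h mean was below the 9 h mean in 131 members, with a median difference of -0.26 against 0.02. The 4 h and 12 h libraries took part in the choice, so these values are a description.

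Members ranged widely in abundance. Their control means ran from 5.78 to 2621 with a median of 98.5. The control mean was above 1000 in 7 members and below 20 in 23. Together they made up 3.90% ± 0.0163 (SD, n = 3) of the library sum in the controls. A pair of members had identical values in all 27 libraries, so the 178 members hold 177 distinct profiles. RSEM divides reads between near-identical sequences, and the levels of this pair are uncertain for that reason.

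The group mean of the median member was 98.5 in control animals and 85.8 after 4 h. It was 58.4 at 6 h and 35.3 at 9 h. From 12 h to 21 h it lay between 31.4 (18 h) and 38.7 (15 h) and was 35.5 at 24 h. The 9 h value, from libraries that had no part in the choice, was already within the late range. By another measure it was not. The median log2 difference of group means from the control was -1.19 at 9 h, against -1.26 (15 h) to -1.61 (18 h). The share of the library sum at 4 h was 3.70% ± 0.161. It was 2.94% ± 0.645 at 6 h and 1.97% ± 0.314 at 9 h. Late shares ran from 1.44% ± 0.142 (18 h) to 1.72% ± 0.00365 (24 h), all as SD with n = 3. The spread at 6 h was the widest of the 9 groups.

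**Figure D1:**
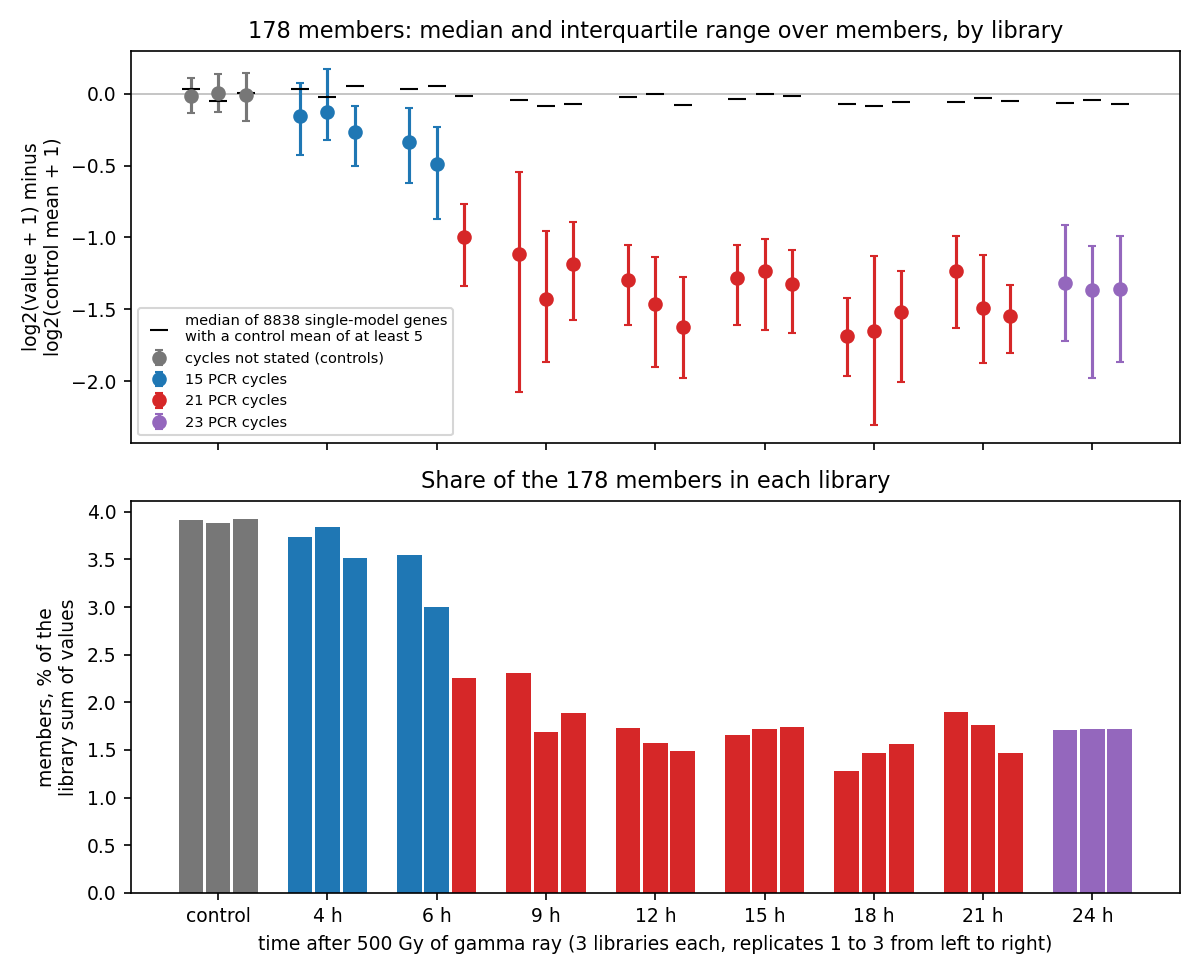
The upper panel plots, for each of the 27 libraries, the median (points) and interquartile range (bars) over the 178 members of log2(value + 1) minus log2(control mean + 1), coloured by PCR cycles, with the median of 8838 genes as a dash. The lower panel plots the summed value of the members as a percent of the library sum. The 6 h replicate with 21 cycles lay at -1.0, below the 6 h replicates with 15 cycles at -0.34 and -0.49, and the dashes stayed near 0.

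At 4 h the values of the members were spread around a slightly lower level. The median difference from the control at 4 h was -0.21 on the log2 scale, inside the range that the rule allowed. The 4 h mean was below that of the controls in 137 members and at or above it in 41. In the 3 libraries of 4 h the median difference was -0.16, -0.13 and -0.27.

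At 6 h the 3 libraries stood apart from each other. The median difference of the members from the control was -0.34 in replicate 1, -0.49 in replicate 2 and -1.0 in replicate 3. Set against the average of 12 to 21 h, the median member had covered 23.9%, 34.6% and 70.3% of its late difference. Replicate 3 was the one with 21 cycles. Its values lay below both other 6 h libraries in 140 members (78.7%), against 40.4% of the tested single-model genes. The median of replicate 3 minus the mean of replicates 1 and 2 was -0.61 over members and -0.02 over tested genes. Whether the cycle number sets this gap was not tested.

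All 3 libraries of 6 h lay below the lowest control library in 98 members (55.1%), against 18.5% of the 8838 genes with a control mean of at least 5. All 3 of 9 h lay below the lowest control library in 148 members (83.1%), against 23.6%. These counts use control libraries that also chose the members, so nothing is read from them about the members. The group mean was under 50% of the control mean in 33 members at 6 h and in 122 at 9 h. The share over all genes is not given here and the control mean also chose the members, so nothing is read from these 2 counts either.

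At 9 h the median difference from the control was -1.12, -1.43 and -1.19 in replicates 1, 2 and 3. These are 76.5%, 96.8% and 84.7% of the late difference of the median member. All 178 members had a 9 h mean below the control mean. The wider spread between libraries at 9 h was in the single members. The median SD of a member over the 3 libraries was 0.530 on the log2 scale, against 0.204 in the controls and 0.510 at 18 h. Over genes with a control mean of at least 5 it was 0.329 at 9 h, against 0.218 in the controls. The control libraries took part in the choice of members.

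The step from 6 h to 9 h is the contrast between neighbouring times whose libraries the choice of members did not use. The choice still fixed levels near the control at 4 h and low levels from 12 h on. A fall somewhere between these times is therefore built in, and a tilt to lower values at 9 h follows from it in part. The members were lower at 9 h as a group of values: the log2 difference was negative in 159 of 178 (89.3%) and positive in 19. Over all 12820 tested transcripts 58.7% were negative. The median difference of the members was -0.62 (interquartile range -1.13 to -0.30, range -3.26 to 1.10), against -0.11 over all tested transcripts and -0.08 over genes with a control mean of at least 5.

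In a limma fit of log2(value + 1) over the 27 libraries, 18 members (10.1%) fell from 6 h to 9 h and 0 rose. A call needed an adjusted p under 0.05 over all 12820 tested transcripts and a ratio of group means over 2. The spread in this fit came from all 27 libraries, including those that chose the members. The count of members called is therefore not independent of the choice. All 178 members passed the filter on low values, which asked that 3 or more libraries reach a value of 1. Of all tested transcripts 125 were called lower at 9 h, or 0.975%, and of genes with a control mean of at least 5 there were 107, or 1.21%. The share of all transcripts called higher is not given here, so nothing is read from the 0 members that rose. The unadjusted p was under 0.05 for 83 members (46.6%), 82 of them lower at 9 h, and for 21.6% of all tested transcripts.

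**Figure D2:**
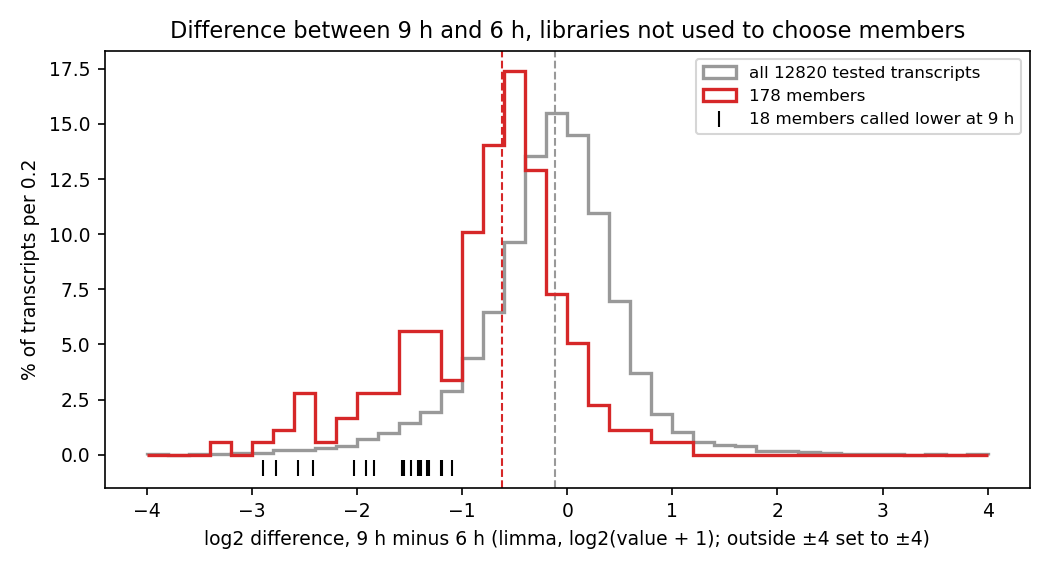
Distribution of the log2 difference between 9 h and 6 h (horizontal axis, limma on log2(value + 1)) as a percent of transcripts per bin of 0.2, for the 178 members and for all 12820 tested transcripts. Dashed lines are the medians, -0.62 and -0.11, and ticks mark the 18 members called lower at 9 h, which lie between -2.89 and -1.09.

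These counts rest on which libraries were used. With only the 6 h and 9 h libraries in the fit, limma called 0 members and 0 transcripts in all, and the unadjusted p was under 0.05 for 60 members (33.7%) and for 15.7% of all transcripts. With all libraries 18 members were among 125 transcripts called lower. Leaving out a 6 h library gave 4 members of 28 transcripts (replicate 1 left out), 2 of 11 (replicate 2) and 33 of 198 (replicate 3). Leaving out 9 h replicate 3 gave 28 members of 311 transcripts. Within 21 cycles of PCR, where 6 h replicate 3 alone was set against the 3 libraries of 9 h, 0 members and 0 transcripts were called. In that fit the single 6 h library was assumed to vary like the other groups. The median difference of the members was then -0.32, against -0.07 over all transcripts, with 121 members negative, and the unadjusted p was under 0.05 for 16 members (8.99%) and 5.39% of all transcripts. The fit without 6 h replicate 3 is also that of the 6 h replicates with 15 cycles against 9 h. Its median over members was -0.82, against -0.13 over all transcripts.

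A count without a model gave a similar picture of the members beside the other genes. All 3 libraries of 9 h lay below the lowest 6 h library in 48 members (27.0%), against 15.5% of genes with a control mean of at least 5. The reverse, all 3 libraries of 9 h above the highest of 6 h, held in 2 members (1.12%), against 11.6%. With 9 h replicate 1 left out, replicates 2 and 3 lay below all of 6 h in 93 members (52.2%), against 28.2%. A single gene with 3 libraries against 3 cannot go below p = 0.10 in a two-sided exact permutation test.

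The control means of the 18 members called lower at 9 h ran from 31.7 to 2621, while those of all members reached down to 5.78. Their median control level was 129.3, their log2 difference ranged from -2.89 to -1.09 with a median of -1.52, and in 16 of them the libraries of 6 h and 9 h did not overlap. By control level, 3 of the 59 lowest members were called, 8 of the 59 in the middle and 7 of the 60 highest. The median difference from 6 h to 9 h was nearly the same in these classes, at -0.65, -0.65 and -0.61. The median SD of a member over the 9 h libraries was 1.02 in the lowest class, 0.487 in the middle and 0.418 in the highest. Within 21 cycles the difference of the 18 lay between -2.47 and -0.35. In the 16 without overlap its negative sign was fixed, since 6 h replicate 3 lay above all 9 h libraries. Nothing is read from the sign. Only 2 of the 18 were called under each of the 6 ways of leaving out a single 6 h or 9 h library.

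The 2 members named by rule are those with the largest log2 fall among the 18. The transcript g298.t1 was at 25.5, 33.4 and 52.3 in the controls, at 44.9, 20.7 and 26.7 at 4 h, and at 40.2, 40.9 and 25.9 at 6 h. At 9 h it was listed at 0 in replicate 1 and at 7.65 and 12.1 in the others. Its controls, 4 h and 6 h overlapped, and each of its 9 h libraries lay below all of them. From 12 h to 24 h its values ran from 4.76 to 14.6.

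The difference of g298.t1 from 6 h to 9 h was -2.89 (SE 0.614, limma adjusted p = 0.0140). With a library at 0 it depends on the pseudocount, and it was -4.05 with a pseudocount of 0.1. Without 9 h replicate 1 it was -1.75 (adjusted p = 0.0225). The call was lost without 6 h replicate 1 (adjusted p = 0.0637) and without 6 h replicate 2 (0.0862), and within 21 cycles the difference was -2.47 (0.681). By the read steps the values rested on 162 to 367 reads at 6 h and on 0, 10 and 82 reads at 9 h.

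The transcript g651.t1 was at 45.4, 73.9 and 45.6 in the controls, at 56.0, 48.7 and 45.5 at 4 h, and at 48.7, 45.3 and 21.5 at 6 h. At 9 h it was listed at 0, 9.80 and 14.2. The 9 h libraries lay below all earlier ones, and 6 h replicate 3 lay between the groups. At 24 h it was at 33.4, 23.7 and 18.2, all above its 21 h values of 3.48, 8.80 and 4.58. The 24 h values came from 22, 16 and 7 reads. Among the members it had the largest positive log2 difference from 21 h to 24 h, 1.98.

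The difference of g651.t1 from 6 h to 9 h was -2.77 (SE 0.718, limma adjusted p = 0.0340). Without 9 h replicate 1 it was -1.54 and no longer called (adjusted p = 0.103). The call was also lost without 6 h replicate 1 (0.147), without 6 h replicate 2 (0.166), with a pseudocount of 0.1 (0.0616) and within 21 cycles, where the difference was -2.04 (0.961).

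**Figure D3:**
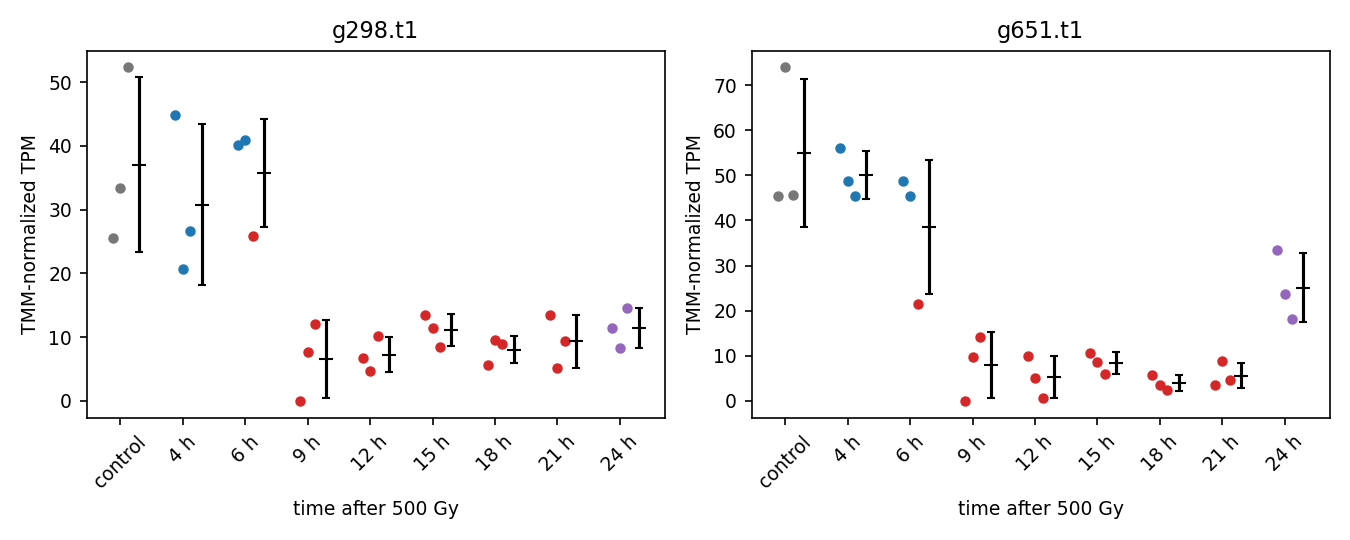
TMM-normalized TPM of g298.t1 (left) and g651.t1 (right) in all 27 libraries by time after 500 Gy, with the mean and SD of each group in black (n = 3). Colours mark PCR cycles as in the plot of medians by library: grey for the controls, blue for 15, red for 21 and purple for 24 h with 23. In both transcripts the 9 h libraries, at most 12.1 and 14.2, lie below all libraries of the controls, 4 h and 6 h.

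A few other members were singled out after their values were seen. The member with the lowest adjusted p was at 355.6, 462.9 and 407.1 in the controls and at 365.2, 382.6 and 283.1 at 6 h. At 9 h it was at 67.9, 111.5 and 112.0. Its 9 h libraries lay far below the controls and 6 h, which overlapped, and the difference was -1.84 (SE 0.282, limma adjusted p = 0.00486). It is one of the 2 members called under each way of leaving out a library (adjusted p 0.0034 to 0.0471). Within 21 cycles its difference was -1.57 (0.301).

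Another called member had 6 h values that did not follow the cycle number. It was at 221.2, 198.4 and 180.1 in the controls, 235.8, 235.7 and 216.9 at 4 h and 150.4, 167.1 and 156.2 at 6 h. At 9 h it was at 63.1, 85.1 and 58.3. The libraries of each of these times lay together and the 3 times from 4 h to 9 h did not overlap. The difference from 6 h to 9 h was -1.2 (SE 0.223, limma adjusted p = 0.00827) and -1.19 within 21 cycles (0.385). It was called in 5 of the 6 ways of leaving out a library.

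The most abundant member was at 3319, 2254 and 2290 in the controls and somewhat higher at 4 h, at 3239, 3791 and 3557. At 6 h its libraries spread over a wide range, at 3231, 1782 and 862.5, and at 9 h it was at 1171, 466.1 and 571.3. The 6 h replicate with 21 cycles lay below the highest 9 h library. The difference was -1.33 (SE 0.368, limma adjusted p = 0.0459), and -0.35 within 21 cycles (0.99). Its mean over 12 to 21 h was 408.4, or 15.6% of the control mean, and its 24 h mean 419.1.

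The largest late difference belonged to a rarer member at 9.96, 22.3 and 21.4 in the controls and 33.9, 37.2 and 0 at 6 h. At 9 h it was listed at 22.5, 0 and 0, and in 10 of the 12 libraries of 12 to 21 h and all 3 of 24 h at 0. Its late mean was 0.375, or 2.10% of the control mean of 17.9. The difference from 6 h to 9 h was -1.94 (limma adjusted p = 0.307), as libraries of both times were at 0 and above 20. The largest positive difference among members was 1.10, in one at 16.3, 9.41 and 6.10 at 6 h and 29.0, 20.2 and 18.5 at 9 h, and it did not pass the test (adjusted p = 0.31).

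The 9 h values depended on replicate 1 in an uneven way. In that library 29 members (16.3%) were listed at 0, against 7.47% of genes with a control mean of at least 5, while 4 and 2 members were at 0 in replicates 2 and 3. The 29 had a median control level of 21.1 and reached up to 135.7. The value of replicate 1 lay more than 1 on the log2 scale above the mean of replicates 2 and 3 in 27 members and more than 1 below it in 43. This is 39.3% of the members, against 22.9% of genes with a control mean of at least 5. Between replicates 3 and 2 the share was 11.2% of members and 5.66% of those genes. Of the 18 members called lower at 9 h, 3 were at 0 in replicate 1, and 12 were also called without that library. The part of the adapter dimers in this was not tested.

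**Figure D4:**
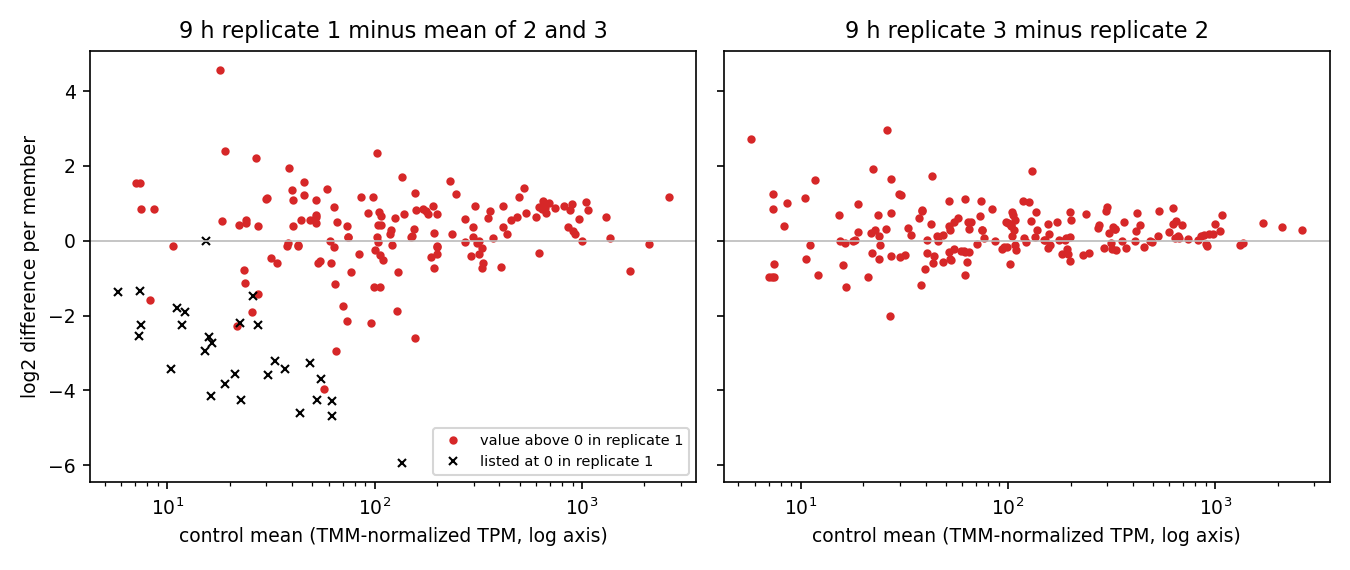
Each point is a member, at its control mean (TMM-normalized TPM, log axis), with the log2 difference between 9 h libraries on the vertical axis: replicate 1 minus the mean of replicates 2 and 3 (left) and replicate 3 minus replicate 2 (right). Crosses are the 29 members listed at 0 in replicate 1. Differences over 1 in size are 39.3% of members on the left and 11.2% on the right.

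From 12 h on the levels of the members were low by the choice. Their average over 12 to 21 h was 37.6% of the control mean in the median member (range 2.10% to 45.2%), with 15 members under 25% and 1 under 10%. On the log2 scale the late difference had a median of -1.40 and ran from -3.84 to -1.2.

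Within the late times the lowest level was most often at 18 h. Among the 8 times after irradiation the lowest group mean was that of 18 h for 68 members, of 24 h for 30, of 12 h for 25, of 9 h for 22, of 21 h for 19, of 15 h for 13 and of 6 h for 1. The 18 h mean was below the 15 h mean in 140 of 178, with a median difference of -0.33, and all 3 libraries of 18 h lay below all of 15 h in 37 members (20.8%). Over genes with a control mean of at least 5 the median was -0.02 and the share without overlap 6.61%. From 18 h to 21 h the median difference of the members was 0.17, against 0.01 over those genes, and all 3 libraries of 21 h lay above all of 18 h in 24 members (13.5%), against 6.35%. These libraries took part in the choice, so the shares are a description.

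At 24 h the members stood at 38.5% of the control mean in the median (range 0% to 61.3%). The median difference from 21 h was 0.05, against -0.02 over genes with a control mean of at least 5. The PCR cycles also changed between these times, from 21 to 23, so time and cycles cannot be told apart here. All 3 libraries of 24 h lay above those of 21 h in 19 members (10.7%), against 5.59% of those genes, and below them in 8 (4.49%), against 7.33%. The 24 h libraries were the shallowest, with medians of 35, 31 and 20.5 reads per member against 182.5 to 497.5 in the controls, among the 160 members whose reads could be recovered. There 20 members had under 10 reads in each 24 h library and 59 in at least 1. Levels of these members at 24 h are therefore coarse. Among the same 160, 34 members had under 10 reads in at least 1 library at 9 h, and 0 at 6 h. Recovery needed values above 0 in 12 or more libraries, so a member with fewer could not be counted. Of the members outside the 160, 1 was listed at 0 in 6 h replicate 3.

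Most members were short transcripts. The read steps also give a relative length of each transcript, in units of the median tested single-model gene, for 160 of 178 members (89.9%) and 9993 of 11873 tested single-model genes (84.2%). The median relative length was 0.440 over members (interquartile range 0.310 to 0.663, range 0.130 to 3.59) and 1.02 over genes with a control mean of at least 5. It was below 1 in 141 members and above 1 in 19. With all genes cut into 5 length classes of like size, the shortest class held 91 members, and the others 41, 16, 7 and 5. The late difference used by the rule also went with length. Its median over all tested genes of each class was -0.55, -0.35, -0.09, 0.11 and 0.39 from the shortest to the longest. The late criterion thus favoured short genes, and the short lengths of the members follow in part from the choice.

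Differences between libraries went with length over all genes as well. From the shortest to the longest class, the median difference between 9 h and 6 h over all tested genes was -0.47, -0.30, -0.16, -0.04 and 0.17. Over members it was -0.62, -0.61, -0.25, -0.48 and -0.72, the last 3 from under 20 members each. The members lay below the median of their length class in each of the 5 classes. A fall between 4 h and 12 h was built in by the choice, so this follows from it in part. Between 6 h replicate 3 and the mean of replicates 1 and 2, the medians over all genes ran from -0.27 in the shortest class to 0.18 in the longest. The members lay at -0.64 in the shortest and -0.29 in the longest.

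**Figure D5:**
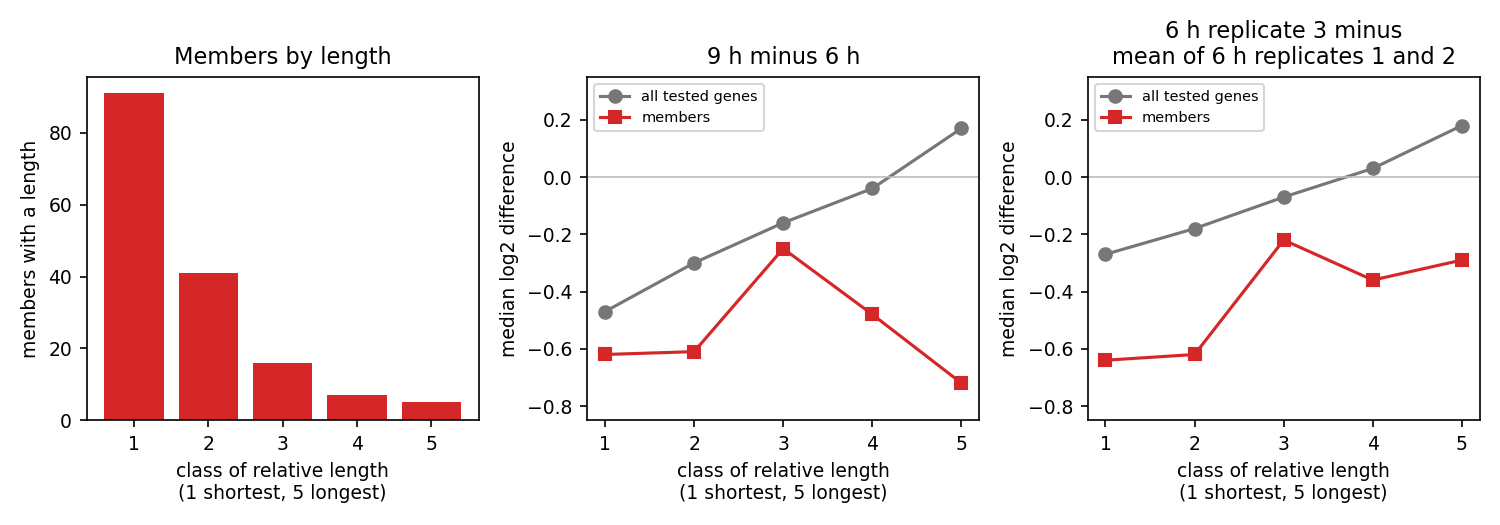
Left, number of members in each of 5 classes of relative length (1 shortest, 5 longest) of all genes with a recovered length. Middle and right, median log2 difference by class for all tested genes (grey) and members (red), between 9 h and 6 h and between 6 h replicate 3 and the mean of 6 h replicates 1 and 2. Over all genes both medians go from below 0 in the shortest class to above 0 in the longest, and the members lie below the grey line in each class. Between 9 h and 6 h this follows in part from the choice of members.

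When the length trend of each library was taken out by loess, a correction chosen after seeing the data, the members called lower at 9 h went from 17 to 5 of the 160 with a length, and all 5 were among the 17. The median difference of the members went from -0.60 to -0.19 and that of all genes from -0.14 to 0.01. Over all genes with a length the share called lower went from 1.17% to 0.20%. This step takes out any difference that goes with length, whatever its source. The transcript g298.t1 was still called (-2.49, adjusted p = 0.0342) and g651.t1 was not (-2.25, 0.0825).

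A long member, at a relative length of 3.17, was also singled out after its values were seen. It was at 320.8, 292.4 and 343.9 in the controls, 292.7, 229.7 and 353.8 at 6 h and 147.3, 166.2 and 216.3 at 9 h. Its 9 h libraries lay below those of the controls and of 6 h, and the 6 h replicate with 21 cycles was its highest at 6 h. The difference was -0.72 (SE 0.229, limma adjusted p = 0.0764), which did not pass the test.

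The course of the members was set beside that of 94 genes that met the same criteria except that they were already at -1 or lower at 4 h. Their median control level was 76.2 and their median relative length 0.549 over 83 with a length. At 6 h the median of these genes had covered 71.0%, 81.3% and 101.1% of its late difference in replicates 1 to 3, against 23.9%, 34.6% and 70.3% in the members. At 9 h the values were 118.9%, 92.4% and 82.1%, against 76.5%, 96.8% and 84.7%. From 6 h to 9 h 1 of the 94 genes (1.06%) was called lower and 4 higher by limma, with a median of -0.39. Nothing is read from the 4, as the share of all transcripts called higher is not given here. The 6 h replicate with 21 cycles was the lowest 6 h library in 71 of the 94. The 2 sets were chosen to differ at 4 h, so the larger share covered at 6 h by the 94 genes follows in part from the choice. Each share is also relative to a late difference that took part in the choice. The difference between the sets was not tested. Only 4 genes met the rule with a level back near the control at 24 h.

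Some members carry neighbouring gene numbers. There were 9 pairs of consecutive numbers, which hold 18 members (10.1%). In 2 of the pairs a partner is one of the members with identical values in all libraries, whose levels are uncertain, and the other 7 pairs hold 14 members. How often consecutive numbers meet in a list of this size was not tested. The members of a pair often differed in level, as 103.4 against 996.8 in the controls for the pair with the lowest numbers. One of the 2 named members, g651.t1, is in a pair. Its neighbour was at 332.9 in the controls with a late difference of -1.93, against -3.08 for g651.t1. The sources used here do not say whether the numbers follow the order of genes on the genome.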

How the data were processed

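RNA of about 30 animals per sample was sequenced on a NextSeq 500 (NEBNext Ultra, single-end reads). The authors mapped reads to coding sequences with bowtie2 and estimated TPM with RSEM through Trinity 2.11.0, and the deposited signal values are TPM scaled by a TMM factor. The authors' own test was on counts, whose table, a supplement of the paper, was not used here. The deposited values were fitted as log2(value + 1) with limma 3.58.1 in R 4.3.3 (group means, trend, two-sided, Benjamini-Hochberg over the transcripts that reached 1 in 3 or more libraries). The fit was tested on simulated data.

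Relative depth and length came from the steps of 1 read in the values, accepted within 0.15 reads. In the genes recovered, 99.2% of values were whole by this measure. Effective lengths of RSEM underlie them, not annotated ones. The steps were used to describe depth, read numbers and relative length, and the lengths also entered the length correction. No count test was run.

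Members and comparison sets were chosen with earlier results of these data known. Named members are the 2 with the largest log2 fall from 6 h to 9 h among those called, since 0 IDs matched the RefSeq gene table (assembly Rvar_4.0). Gene lists could not be matched, and no sequence is printed. Alternatives were another pseudocount, no TMM factor, no filter, a 2-group fit, a replicate block, each library left out, each cycle number at 6 h, no fold threshold, a length correction and other limits of the rule. Software was Python 3.11.15 with matplotlib 3.10.9.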

Additional observations from a re-analysis of the deposited data

How the results depend on the processing

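The number of transcripts called lower at 9 h than at 6 h, 125 in all and 18 members, became 0 and 0 with only those groups in the fit, 0 and 0 within 21 PCR cycles (member median -0.32), 198 and 33 with the 6 h replicates of 15 cycles, and 20 and 5 (median -0.19) with the length trend taken out. Without a fold threshold it was 303 and 24. Leaving out a library gave 11 to 311 in all, 2 to 33 members and a member median of -0.82 to -0.49. The counts in all were 28, 11, 198 and 311 without 6 h replicates 1, 2 and 3 and 9 h replicate 3. The fit without 6 h replicate 3 is the same fit as that with the 6 h replicates of 15 cycles. On leaving out a library the difference of g298.t1 ran from -3.61 to -1.75 and that of g651.t1 from -3.5 to -1.54. No difference of the members' median or of the 2 named members turned its sign under any of these alternatives. For the 2 named members leaving out libraries could not turn it, since their 6 h and 9 h libraries did not overlap. A pseudocount of 0.1, no TMM factor and no filter gave 112, 95 and 122 in all and 15, 16 and 15 members.

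Replicate numbers did not pair the libraries of 6 h and 9 h (correlations of same-numbered deviations -0.016, -0.041 and -0.019, over tested single-model genes), and 0 of the 6 libraries correlated best with its own number. With the replicate number as a block, 116 transcripts and 17 members were called lower, the median stayed at -0.62, and the differences of g298.t1 and g651.t1 stayed at -2.89 and -2.77.

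The number of members was 107 with a 4 h difference between -0.3 and 0.3, 254 between -0.7 and 0.7, 93 with libraries rescaled to the same sum and 165 to 206 on leaving out a library. Without control replicate 1 or 3, 137 of the 178 remained. Apart from the 2-group fit, the cycle and length alternatives, whose construction is given with the results, the cause of these shifts was not tested.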
